A study of Mus musculus with 22 samples.

Results

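The 26S proteasome degrades proteins that carry ubiquitin chains. Its 20S core is a barrel in which an alpha ring at each end gates the chamber and the beta rings inside hold the proteolytic sites, and regulatory particles cap the barrel. The 19S particle binds ubiquitin with its base, removes the chains with its lid and unfolds the substrate with a ring of ATPases, while the PA28 and PA200 caps activate the core without ATP. In neurons the proteasome clears misfolded proteins and takes part in the turnover of synaptic proteins.

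The constitutive proteasome subunits were taken here as every gene of the expression matrix whose symbol starts with Psma, Psmb, Psmc, Psmd or Psme followed by a number, leaving out Psmb8, Psmb9 and Psmb10, which replace the catalytic subunits in the immunoproteasome. The rule gave 40 of 23361 genes and used no measured value. Of the 40, 16 belong to the 20S core (8 Psma and 8 Psmb) and 24 to the regulatory particles (6 Psmc, 14 Psmd and 4 Psme), and all 40 passed the filter of a mean of at least 0.1 FPKM (read fragments scaled to transcript length and library size) that left 16978 genes to test.

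Messenger RNA was sequenced from microdissected hippocampal CA1 of 22 wild-type female mice, F1 offspring of Swiss Webster x DBA/C57BL6, with 1 library per mouse. AL mice ate freely, and CR mice received a calorie-restricted diet reduced in carbohydrates, from early adulthood on. AL and CR mice were taken at 5 months (n = 5 each) and at 15 months (n = 6 each). P-values therefore measure the spread between mice, and in bulk tissue fewer cells of a type and less RNA per cell cannot be told apart.

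Facts of the libraries bear on the comparisons. The median FPKM of a library lay between 2.51 and 3.097. The study gives an average depth only, the depth of each library is not given in the sources used here, and whole reads could not be recovered from the values. The labelled region was checked with 6 CA1 pyramidal neuron markers, whose mean log2(FPKM + 0.1) lay between 4.88 and 5.75 in the younger AL mice and between 3.30 and 4.53 in the older ones, with 3 of 6 lower in the test, while 5 of 8 neocortex and subiculum markers were higher. The neocortex and subiculum score minus the CA1 score lay between -3.04 and -1.53 in the younger and between -0.95 and 0.95 in the older AL mice, without overlap, so markers of the dissected region moved with age in AL mice. In CR mice this region score lay between -3.07 and -2.16 at 5 months and between -2.32 and 0.21 at 15 months. Choroid plexus markers were lower with age in 4 of 6 cases in AL mice, whose score lay between -0.74 and 2.07 at 5 months and between -2.38 and -0.45 at 15 months, and in 5 of 6 cases in CR mice. Dentate gyrus markers were lower in 2 of 5 cases in AL mice, CA3 markers in 2 of 4, and oligodendrocyte and microglia markers in 1 of 6 each. Of 5 astrocyte markers 1 was higher and 1 lower in AL mice, and no endothelium or interneuron marker was called. By diet no marker was called at either age. The counts of called subunits with the region and choroid plexus scores held constant are given after the comparison with age, and the part of the other lists was not tested.

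Promoters of 33 of the 40 genes were matched by symbol in RefSeq on GRCm38.p6, giving 36 windows of 250 bases before to 50 bases after a listed start. Those of Psmb1, Psmb2, Psmb7, Psmc3, Psmd3, Psmd7 and Psma8 were not used here. The 150 bases before the start are printed for the 3 members with the lowest log2 fold change with age in AL mice that had a window (Psmb5, Psmb3 and Psmb6) and for Psmd9 and Psmd11, which were among the 3 with the smallest. Capitals mark matches to any of 4 motifs searched on both strands, namely the antioxidant response element core TGACNNNGC, which the proteasome gene activator Nfe2l1 is known to bind, the CCAAT box, the ETS site CCGGAAG and the GC box GGGCGG. The windows are chr14:54617996-54618145 on the minus strand (Psmb5), and on the plus strand chr11:97703284-97703433 (Psmb3), chr11:70525207-70525356 (Psmb6), chr5:123228040-123228189 (Psmd9) and chr11:80428465-80428614 (Psmd11).
Psmb5: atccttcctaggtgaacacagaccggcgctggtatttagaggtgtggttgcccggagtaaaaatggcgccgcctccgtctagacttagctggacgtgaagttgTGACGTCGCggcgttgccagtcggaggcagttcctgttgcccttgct
Psmb3: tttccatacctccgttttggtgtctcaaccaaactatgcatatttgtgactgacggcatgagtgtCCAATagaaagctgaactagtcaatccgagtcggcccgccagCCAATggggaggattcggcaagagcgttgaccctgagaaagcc
Psmb6: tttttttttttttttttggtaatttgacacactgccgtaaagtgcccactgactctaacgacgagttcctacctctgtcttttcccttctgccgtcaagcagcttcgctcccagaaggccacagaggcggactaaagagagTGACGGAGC
Psmd9: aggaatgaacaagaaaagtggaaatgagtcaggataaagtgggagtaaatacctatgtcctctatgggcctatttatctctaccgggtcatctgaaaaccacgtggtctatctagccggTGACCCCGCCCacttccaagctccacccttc
Psmd11: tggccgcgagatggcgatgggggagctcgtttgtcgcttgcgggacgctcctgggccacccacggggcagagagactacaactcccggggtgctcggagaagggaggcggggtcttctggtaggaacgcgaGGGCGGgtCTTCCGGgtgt
The antioxidant response element core stood in the Psmb5 and Psmb6 windows and also in that of Psmd9, where it shares letters with a GC box on the other strand. Over the whole windows it occurred in 6 of 36 member windows (16.7%) and in 12.4% of all 32851 windows. The ETS site stood in 12 of 23 regulatory windows and in 1 of 13 core windows, against 8.86% of all windows. The GC box stood in 17 of 23 regulatory and 5 of 13 core windows, against 35.7% of all. The CCAAT box stood in 7 of 13 core and 6 of 23 regulatory windows, against 37.4% of all.

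Nearly the whole proteasome was abundant in this tissue. The exceptions were Psma8, the testis-specific alpha subunit, at a mean of 0.228 FPKM over the 22 libraries, and Psmb11, the thymus-specific beta subunit, at 0.439 FPKM. The other 38 ran from 9.59 FPKM for Psmd9, a chaperone of 19S assembly, to 145 FPKM for Psmb7, the trypsin-like catalytic subunit. FPKM is a level per length, so genes can be set side by side. The median over the 14 abundant core genes in AL mice at 5 months was 96.6 ± 7.33 FPKM (SD, n = 5) and that over the 24 regulatory genes 58.6 ± 3.55 FPKM. Levels of Psmb5, Psmb6 and Psmb7 could include reads from the 4 pseudogenes named after these 3 genes, since the way the annotation split them is not known here.

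The first comparison asked how subunit mRNA differed between AL mice at 15 and at 5 months. The catalytic subunit Psmb5 and 8 other subunits were lower at 15 months, and none was higher. The 20S core held 7 of the 9 called genes and the regulatory particles 2, both in the 19S lid. A gene was called at a limma adjusted p under 0.05, adjusted over all 16978 genes. The 9 of 40 (22.5%) stand against 20.6% of all genes called in either direction, 9.97% lower and 10.7% higher. The log2 fold change was negative for 39 of the 40 members, with a median of -0.15, whereas 50.2% of all genes were negative, with a median of -0.00177. The one positive member was Psmb11, at 0.028. In 5 members, all lower, the libraries of the groups did not overlap. Among all 16978 genes, 1150 (6.77%) were lower without overlap and 1234 were higher without overlap.

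**Figure D1:**
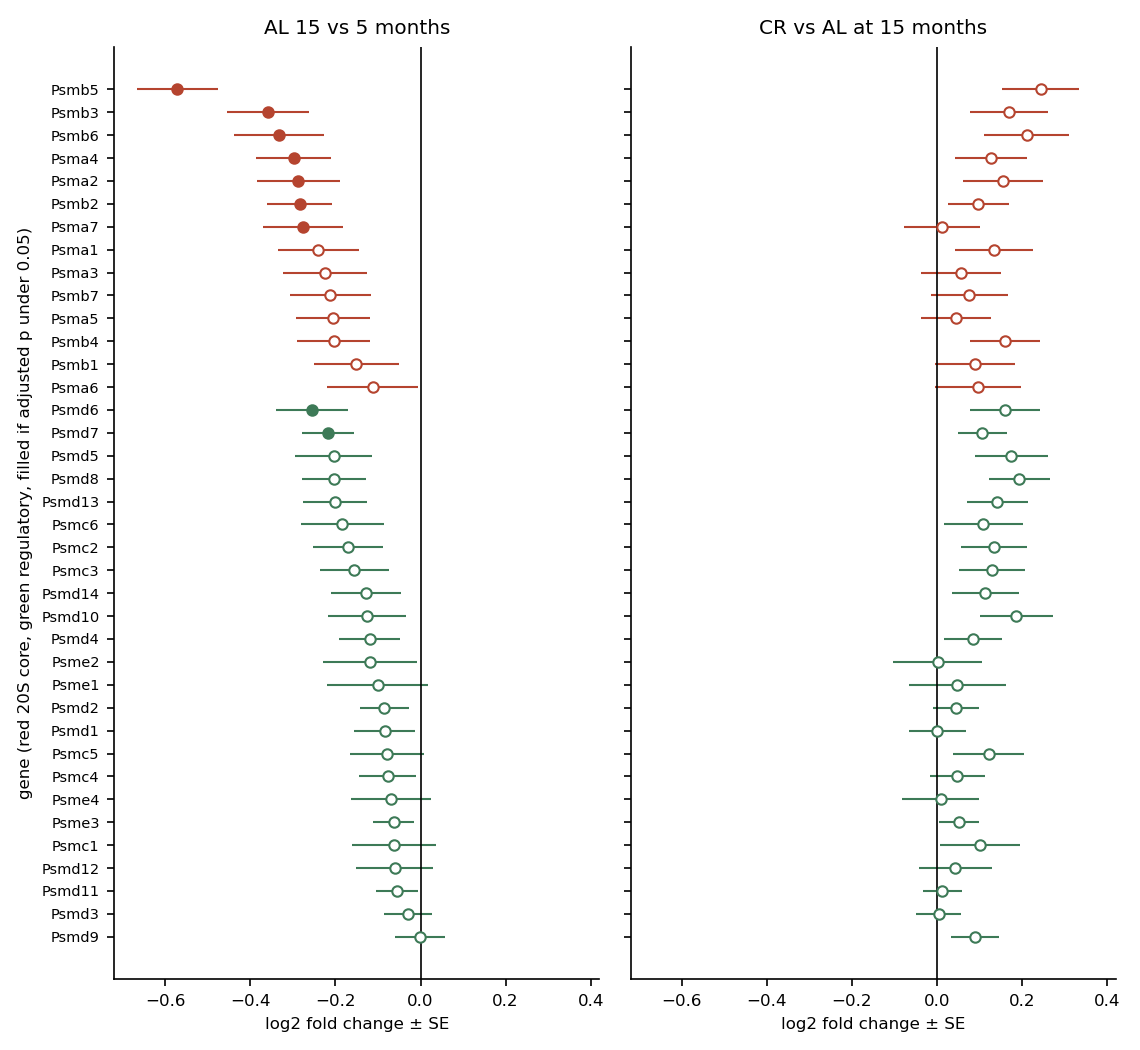
Log2 fold change ± SE from limma for the 38 subunits with a mean of at least 1 FPKM, for AL mice at 15 against 5 months (left) and CR against AL mice at 15 months (right). Red marks 20S core genes and green regulatory genes, and filled points are those with an adjusted p under 0.05. All 9 filled points are in the left panel, 7 red and 2 green, and the points lie left of 0 on the left and right of 0 on the right.

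Among the catalytic subunits, Psmb5, which carries the chymotrypsin-like site, was at 139, 161, 163, 131 and 153 FPKM in the 5 AL mice at 5 months. At 15 months it was between 90.1 and 114 FPKM, with a median of 100.02. The groups did not overlap, and every older mouse was below every younger one. Its change was -0.57 ± 0.10 on the log2 scale (SE; limma adjusted p = 0.000661), and the mean fell by 32.8%. A permutation test of Psmb5, exact and two-sided, gave p = 0.00216, the smallest that 462 divisions of these mice allow.

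Psmb6, the caspase-like subunit, was at 71.8, 81.9, 95.6, 77.1 and 93.0 FPKM at 5 months. At 15 months its 6 values ran from 61.2 to 69.9 FPKM with a median of 66.1, again without overlap. The change of -0.33 ± 0.11 on the log2 scale passed (SE; limma adjusted p = 0.0304). Psmb7, the third active site, did not pass, at 154 ± 11.3 FPKM (SD, n = 5) against 133 ± 10.6 FPKM in the older mice (SD, n = 6; log2 fold change -0.21, limma adjusted p = 0.116). The ratios of their mRNA levels were also read within each library. Psmb5 over Psmb7 lay between 0.919 and 1.031 in AL mice at 5 months and between 0.694 and 0.873 at 15 months, so the ranges did not overlap. Psmb5 over Psmb6 had means of 1.79 and 1.52, with ranges of 1.65 to 1.97 and 1.40 to 1.75 that did overlap. In CR mice the ages overlapped in each ratio, with Psmb5 over Psmb7 between 0.917 and 1.017 at 5 months and between 0.703 and 1.029 at 15 months.

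**Figure D2:**
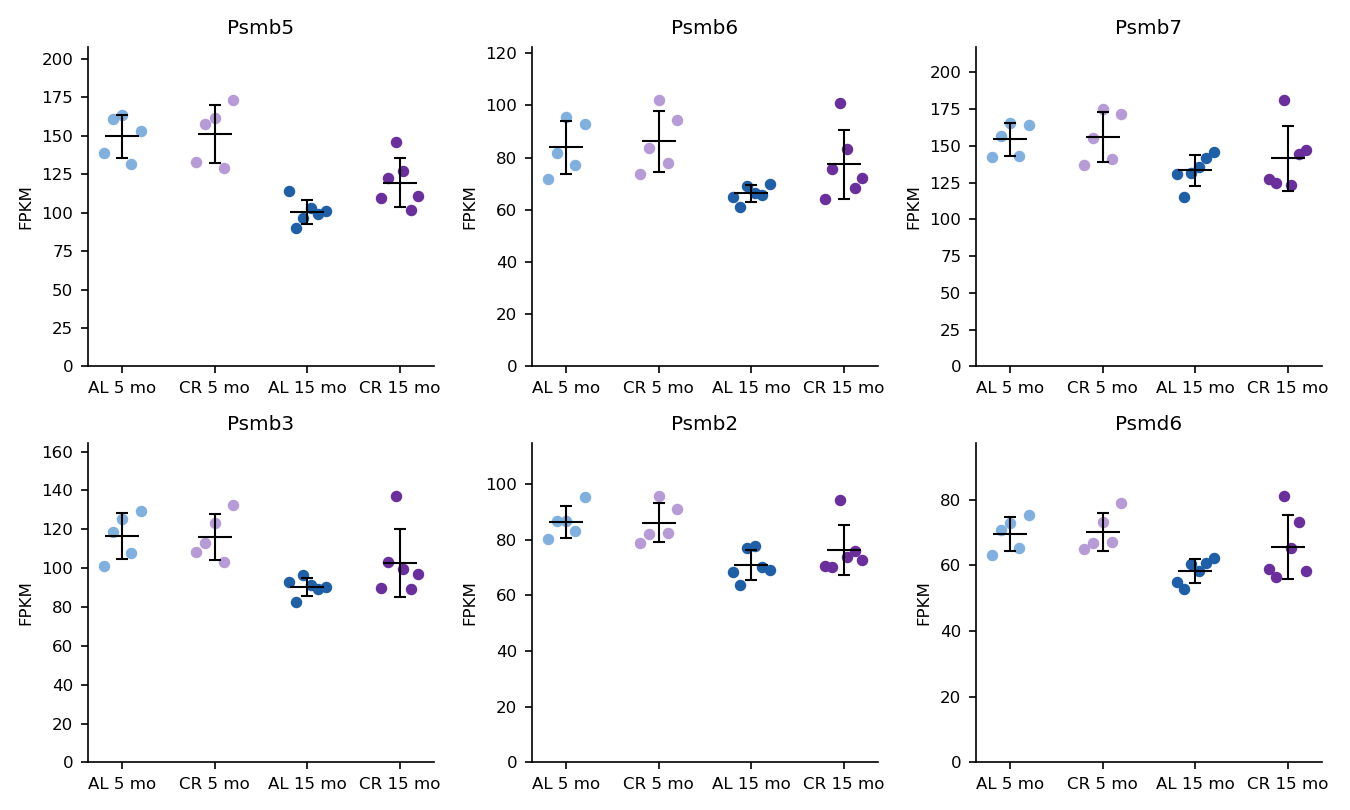
FPKM in each library of the 3 catalytic subunits (Psmb5, Psmb6, Psmb7), 2 other beta subunits (Psmb3, Psmb2) and the lid subunit Psmd6, by group. Points are mice, and bars give the mean and SD of n = 5 (5 months) or n = 6 (15 months). For Psmb5 the AL mice at 15 months lie between 90.1 and 114 FPKM, below the 131 to 163 FPKM of AL mice at 5 months.

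Of the beta subunits without an active site, Psmb3 and Psmb2 passed and Psmb1 and Psmb4 did not. Psmb3 was at 101, 119, 125, 108 and 130 FPKM at 5 months. The older mice lay between 82.6 and 96.5 FPKM, median 90.9, all below the younger ones, a change of -0.36 ± 0.10 on the log2 scale (SE; limma adjusted p = 0.0125). Psmb2 was at 80.3, 86.6, 86.8, 83.0 and 95.4 FPKM in the younger mice, while the older ones lay between 63.8 and 77.7 FPKM around a median of 69.7, also without overlap (log2 fold change -0.28, limma adjusted p = 0.0127). Psmb4 had a log2 fold change of -0.20 (limma adjusted p = 0.0963) and Psmb1 one of -0.15 (limma adjusted p = 0.289).

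The 7 alpha subunits present in brain form the outer rings, whose N-termini close the gate. Psma4, Psma2 and Psma7 passed. Psma4 was at 82.7, 95.4, 98.7, 96.5 and 96.8 FPKM in the younger mice, while the older ones lay between 67.8 and 83.6 FPKM around a median of 78.6. Only the lowest younger mouse reached into the older range, a change of -0.30 ± 0.09 in log2 units (SE; limma adjusted p = 0.0226). Psma2 averaged 97.9 ± 8.60 FPKM (SD, n = 5) in the younger and 80.2 ± 7.18 FPKM (SD, n = 6) in the older mice, with a log2 fold change of -0.29 (limma adjusted p = 0.0418). Psma7 had means of 109 ± 7.74 and 90.1 ± 5.37 FPKM, with a log2 fold change of -0.28 (limma adjusted p = 0.0414). In both genes the groups overlapped. The other 4 alpha subunits ran from -0.24 for Psma1 to -0.11 for Psma6 on the log2 scale and did not pass.

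In the regulatory particles the differences were smaller. The 6 ATPases that unfold substrate, Psmc1 to Psmc6, had a median log2 fold change of -0.12, from -0.18 for Psmc6 to -0.062 for Psmc1, and none passed (lowest limma adjusted p = 0.141). The base scaffolds Psmd1 and Psmd2 and the ubiquitin receptor Psmd4 had differences between -0.12 and -0.084 on the log2 scale, and none passed. Among the 8 lid genes the median was -0.16. Psmd6 was at 63.0, 70.9, 73.1, 65.3 and 75.3 FPKM in the younger mice, while the older ones lay between 52.7 and 62.1 FPKM around a median of 59.3, without overlap (log2 fold change -0.26, limma adjusted p = 0.0392). Psmd7, the partner of the lid deubiquitinase, had means of 75.3 ± 4.22 FPKM (SD, n = 5) and 64.8 ± 4.20 FPKM (SD, n = 6), with 1 older mouse at 70.6 FPKM above the lowest younger one at 70.2 (log2 fold change -0.22, limma adjusted p = 0.0168). Psmd14, the deubiquitinase itself, had a log2 fold change of -0.13 (limma adjusted p = 0.278).

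Psmd9, Psmd3 and Psmd11 had the differences nearest 0 among the regulatory genes. Psmd9 averaged 9.20 ± 0.444 FPKM (SD, n = 5) in the younger and 9.20 ± 0.484 FPKM (SD, n = 6) in the older mice, a log2 fold change of -0.000843. Psmd3, a lid scaffold, was at 67.0 ± 2.02 and 65.7 ± 4.08 FPKM, with a log2 fold change of -0.030. Psmd11 was at 32.3 ± 0.299 and 31.1 ± 1.72 FPKM, with a log2 fold change of -0.056. These 3 did not pass the test, and all 3 were positive at a common summed FPKM. The other 19S assembly chaperones, Psmd5 and Psmd10, had log2 fold changes of -0.20 and -0.13 and did not pass. The caps Psme1, Psme2 and Psme3, which build PA28, and Psme4, which is PA200, had differences between -0.12 and -0.063 on the log2 scale, and none passed (lowest limma adjusted p = 0.366).

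The core and the regulatory particles were then set against each other. The median log2 fold change was -0.23 over the 16 core genes (-0.26 over the 14 abundant ones) and -0.11 over the 24 regulatory genes. Within each library, the mean log2 level of the 14 abundant core genes minus that of the regulatory genes was 1.01, 1.06, 1.08, 1.02 and 1.10 in AL mice at 5 months. In AL mice at 15 months it ran from 0.839 to 0.956 with a median of 0.907, so the groups did not overlap. With Psma8 and Psmb11 included, the difference was 0.078 ± 0.028 (SD, n = 5) in the younger and -0.044 ± 0.048 (SD, n = 6) in the older AL mice, also without overlap. In CR mice the ages overlapped. Over the 14 abundant core genes the difference lay there between 0.935 and 1.10 at 5 months and between 0.861 and 1.14 at 15 months. The CR median at 15 months was 0.911, near the AL median of 0.907. The value of 1.14 was that of CR 15 months replicate 2, and the others of that group lay between 0.861 and 0.936. Under every alternative processing run, the core median stayed below the regulatory one with age in AL mice, by 0.086 to 0.15 on the log2 scale. The core genes were also shorter, with a median longest transcript of 1374 bases against 1987.5 bases, and higher in level. Over the 38 abundant members the log2 fold change had a Spearman correlation of 0.44 with transcript length and of -0.48 with mean FPKM, given as a description over genes of the same libraries. With the GC and length trend of each library removed, the core and regulatory medians were -0.19 and -0.088. Of the members 6 were then called, against 22.9% of all genes tested.

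**Figure D3:**
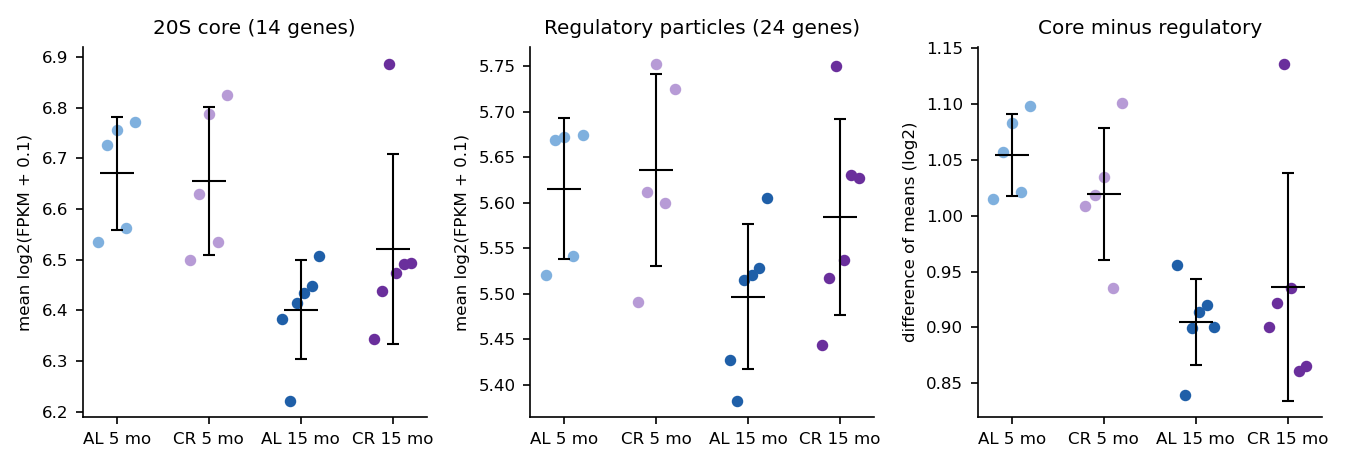
Mean log2(FPKM + 0.1) in each library over the 14 abundant 20S core genes (left), the 24 regulatory genes (middle) and their difference (right), by group. Points are mice and bars the mean and SD (n = 5 at 5 months, n = 6 at 15 months), and the difference in AL mice lies between 1.01 and 1.10 at 5 months and between 0.839 and 0.956 at 15 months.

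The number of called subunits changed with marker scores held constant and with scaling, and the causes were not tested. With the region score held constant, 0 of the 40 members and 0 of all 16978 genes were called. The medians were then -0.20 for the core and -0.12 for the regulatory genes. In AL mice this score did not overlap between the ages, so the fit could separate score and age only poorly. With the choroid plexus score held constant, Psmb5 alone of the 40 members was called, against 11.2% of all genes. In that fit 38 members were negative, and the medians were -0.23 for the core and -0.077 for the regulatory genes. Summed FPKM outside microRNA and small nucleolar RNA genes was also lower at 15 months, from a range of 395393 to 436602 to one of 363651 to 398342 in AL mice. After libraries were brought to a common sum, which moved the median of all genes to 0.10, 13 members were positive and 4 stayed called, namely Psmb2, Psmb3, Psmb5 and Psmb6. The core median was then -0.12 and the regulatory one 0.00052, with 12 of 24 regulatory genes negative, against 24 of 24 without it. Among all genes called, that scaling put 983 of 4001 lower, against 1693 of 3502 without it. Psmb5, Psmb3 and Psmb2 were called whichever of the 11 AL libraries was left out. The other 6 were each lost in at least 1 case. Of these 11 fits, Psmd7 was called in 10, Psma4 in 7, Psmb6 in 6, Psmd6 in 5, Psma2 in 3 and Psma7 in 2. The count was 3 without AL 5 months replicate 2, 4 without AL 5 months replicate 4, AL 15 months replicate 0 or AL 15 months replicate 1, and 5 without AL 5 months replicate 1. Leaving out CR 15 months replicate 2 raised the count to 14, although that library enters only through the shared estimate of the spread.

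The second comparison asked how CR differed from AL at 15 months, and no subunit was called in either direction. The comparison shares its AL mice with the first one. The background is 0.742% of all genes, or 126 in number. Of the 40 members, 38 had a positive log2 fold change, with a median of 0.097 over all 40, 0.097 over the core and 0.095 over the regulatory genes, and the 2 negative ones were Psma8 and Psmb11. Among all genes 49.6% were positive, with a median of -0.00118. At an unadjusted p under 0.05 there were 4 members of 40, against 17.1% of all genes.

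Psmb5 had the highest log2 fold change. It was between 90.1 and 114 FPKM in AL mice and between 102 and 146 FPKM in CR mice, with medians of 100.02 and 116.7, and all 6 CR mice lay above the AL median. This gave a change of 0.24 ± 0.09 in log2 units (SE; limma adjusted p = 0.181, exact permutation p = 0.0238). Psmb6 had medians of 66.1 and 74.0 FPKM and a log2 fold change of 0.21 ± 0.10 (SE; limma adjusted p = 0.289). Psmb7 had medians of 133 and 136 FPKM and a log2 fold change of 0.076 (limma adjusted p = 0.700). Psmd8, a lid subunit, ran from 58.1 to 67.6 FPKM in AL and from 66.8 to 87.3 FPKM in CR mice, overlapping only at these ends (log2 fold change 0.19, limma adjusted p = 0.183, exact permutation p = 0.00433). Psmd10, the 19S chaperone also called gankyrin, was the fourth, at 0.19 (limma adjusted p = 0.276). At the other end, Psmd1, Psme2 and Psmd3 were at 0.00098, 0.0015 and 0.0036 on the log2 scale.

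Part of this offset moved with 1 mouse. CR 15 months replicate 2 had the highest mean level of the 14 abundant core genes of all 22 libraries, 6.89 on the log2 scale, against a CR median of 6.48 and an AL range of 6.22 to 6.51. Without that library the median log2 fold change was 0.029 for the core and 0.063 for the regulatory genes, and 32 members were positive. Without AL 15 months replicate 1, the lowest of the AL mice, the core median was 0.063. Brought to a common summed FPKM, the medians were 0.023 and 0.021, with 25 members positive. No member was called under any of the 36 alternatives in this comparison. Markers also differed in level between the diets at 15 months, although none was called. The region score had a mean of 0.12 in AL and -0.78 in CR mice, with overlapping ranges, and the dentate gyrus markers had a median log2 fold change of 1.38. With the region score held constant, the medians were 0.093 for the core and 0.084 for the regulatory genes. The part of the dentate gyrus markers was not tested.

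**Figure D4:**
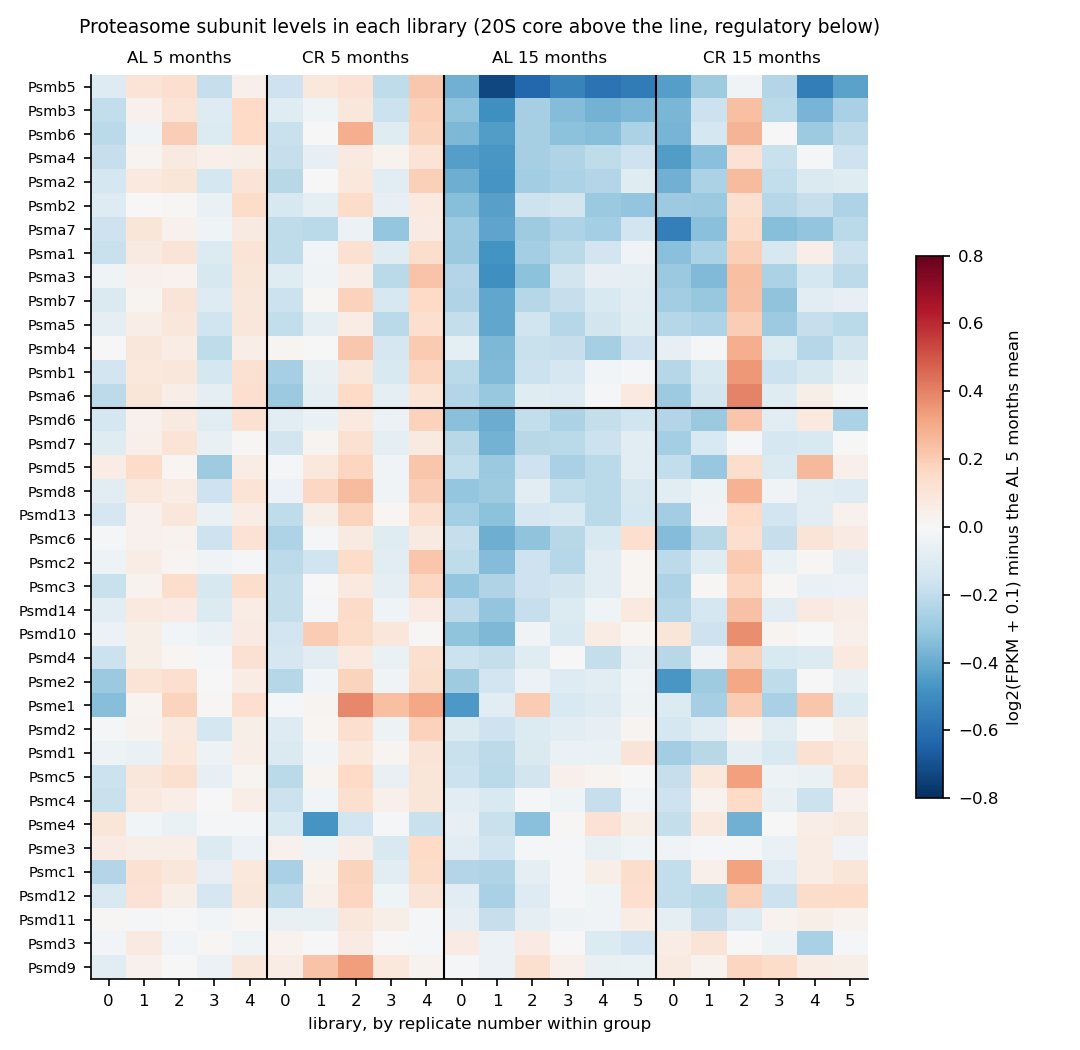
Log2(FPKM + 0.1) of the 38 abundant subunits (rows, core above the line and regulatory below) in each of the 22 libraries (columns, by group and replicate number), minus the mean of the AL mice at 5 months. In the core rows, with Psmb5 at the top, AL 15 months replicate 1 has the lowest mean log2 level, 6.22. CR 15 months replicate 0 is next at 6.34. The other AL libraries at 15 months lie between 6.38 and 6.51, so the diets overlap at that age. CR 15 months replicate 2 is red in most rows.

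CR against AL at 5 months gave no called member and no called gene in limma (0% of all), with 2 members and 4.65% of genes at an unadjusted p under 0.05. The members split 21 positive to 19 negative, with a median log2 fold change of 0.00124, and at a common median FPKM 12 were positive. Psmb5 was at 133, 158, 162, 129 and 173 FPKM in CR mice, a range that covers that of the AL mice. All 7 abundant alpha subunits were negative, from -0.14 for Psma7 to -0.0077. Among the abundant members the ends were Psme4 at -0.19, with means of 14.2 and 12.5 FPKM in AL and CR mice, and Psme1 at 0.19, with means of 40.6 and 46.2 FPKM. Psmd9 was at 0.15, and it was the only abundant member with an unadjusted p under 0.05. Psma8 was the other and the lowest of all 40, at -0.49 on the log2 scale, with means of 0.280 FPKM in AL and 0.178 FPKM in CR mice, close to the filter on low values. The choroid plexus score lay between -0.74 and 2.07 in AL and between 0.62 and 5.19 in CR mice at this age. With it held constant, the medians were -0.031 for the core and 0.0059 for the regulatory genes.

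CR mice at 15 against 5 months gave no called member either, against 3.36% of all genes, and 2 members against 18% of genes had an unadjusted p under 0.05. The log2 fold change was negative for 33 members, against 49.7% of all genes. The median was -0.12 for the core and -0.042 for the regulatory genes. These medians were -0.080 and -0.048 with the region score held constant and -0.066 and -0.018 with both scores. They were -0.087 and -0.0054 at a common summed FPKM, -0.083 and -0.013 after quantile normalization, and -0.080 and -0.023 with the GC and length trend removed. Psmb5 was again the lowest, from a median of 158 to one of 117 FPKM, with 1 older mouse at 146 FPKM inside the younger range (change of -0.34 ± 0.10 on the log2 scale, SE; limma adjusted p = 0.0552, exact permutation p = 0.0216). It was called in 6 of 36 alternatives. Psme1 had a log2 fold change of -0.24 (limma adjusted p = 0.294) and Psmb3 one of -0.19 (limma adjusted p = 0.316). Psmc1 and Psmc5 were at 0.037 and 0.041 and Psme4 at 0.13. Without CR 15 months replicate 2, 3 members were called and the core median was -0.20, and without CR 5 months replicate 4 that median was -0.074. A single member was called without CR 5 months replicate 0, CR 5 months replicate 3 or CR 15 months replicate 3.

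Whether age differed by diet was tested directly as an interaction. No member and no gene was called in limma, and 0 members against 7.66% of genes had an unadjusted p under 0.05. The interaction was positive for 35 of 40 members, with a median of 0.11, and all 16 core genes were positive. Among all genes 50.7% were positive, with a median of 0.00445. At a common summed FPKM, 28 members were positive, with medians of 0.061 for the core and 0.019 for the regulatory genes. For Psmb5 it was 0.23 ± 0.13 (SE; limma adjusted p = 0.682). The threshold was thus passed by 9 subunits with age in AL and by 0 in CR mice, and the difference between the diets did not pass for any of them.

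By mean FPKM, Psmb5 ranked 2 of the 40 in AL and 3 in CR mice at 5 months, and 5 in both diets at 15 months. Within single mice it ranked between 1 and 3 at 5 months. At 15 months it ranked between 3 and 6 in AL and between 2 and 5 in CR mice, so the ranges overlapped. These ranks restate the FPKM values given above.

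Around the constitutive subunits, 36 genes were listed and 35 were tested. They build, bind, feed or transcribe the proteasome, or are the 3 immunoproteasome subunits left out of the members. With age in AL mice, 2 of the 35 were lower and 0 higher, against 9.97% of all genes lower and 10.7% higher. They were Ube3c, a ubiquitin ligase that extends chains at the proteasome, which went from 27.2 ± 1.82 FPKM (SD, n = 5) to 23.4 ± 1.83 FPKM (SD, n = 6; log2 fold change -0.22, limma adjusted p = 0.0331), and Foxo4, a transcription factor, from 9.25 ± 0.671 to 7.19 ± 0.613 FPKM (log2 fold change -0.36, limma adjusted p = 0.0282). None of the 35 passed in the other comparisons. Nfe2l1, the activator that restores proteasome gene expression when proteasome activity is low, averaged 89.9 ± 3.80 FPKM (SD, n = 5) in the younger and 102 ± 6.42 FPKM (SD, n = 6) in the older mice, with a log2 fold change of 0.18 (limma adjusted p = 0.0633), opposite in sign to the subunits. The 5 chaperones of core assembly, Psmg1 to Psmg4 and Pomp, were all negative with a median of -0.19, and none passed. Psmg4 was at -0.35 (limma adjusted p = 0.0802).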

How the data were processed

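CA1 RNA of 22 mice was sequenced as paired ends from TruSeq libraries. The authors used TopHat for alignment to mm10 and Picard against duplicates, and deposited FPKM values that Cufflinks estimated with fragment bias and multi-read corrections. Versions and the annotation release are not given in the sources used here. The matrix held 23361 genes, and 0 value columns were left out. Multi-read correction shares reads among similar genes, which could move subunits with pseudogenes.

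Values were analysed as log2(FPKM + 0.1), a scale that understates changes of low genes. Genes with a mean of at least 0.1 FPKM (16978) were fitted over all 4 groups in R 4.3.3 by limma 3.58.1, with an intensity trend in eBayes. Calls took a Benjamini-Hochberg adjusted p under 0.05, two-sided, within each contrast. Single members were also compared by exact two-sided permutation tests, unadjusted. Tables and figures used pandas 2.3.3 and matplotlib 3.10.9 in Python 3.11.15, the permutations numpy 2.4.6 and the Spearman correlations scipy 1.17.1. In simulated data the fit recovered 175 to 194 of 200 changes of 2-fold or 4-fold, depending on the contrast. The changes of the subunits were smaller, so the simulation does not show how many of that size would be found. Whole reads were sought in 3 pairs of libraries, and at most 0.538% of genes lay on a common ratio. Coordinates are GRCm38. The region score is the mean log2 of the neocortex and subiculum markers minus that of the CA1 markers.

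The members and gene lists were chosen with earlier results of these data known. The members named are those called, the 3 lowest and 3 highest abundant members of each contrast, and the catalytic subunits. Psmd10, Psma8 and Psmb11 and those described by role were named after their values were seen. The alternatives were other pseudocounts, filters and scalings, no trend, separate fits, a replicate block, marker scores as covariates, removal of GC and length trends, and leaving out each library.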

Additional observations from a re-analysis of the deposited data

Results flagged for a closer look

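Of 108 sets of 1 measure in 1 group, 8 held a library far from the rest by Dixon's test at 95%. For separate sets chance gives about 1 in 20, but these sets share libraries and genes, so no conclusion is drawn from the count. Of the 8, 6 were CR 15 months replicate 2. Its mean log2 level over all 16 core genes was 5.84, against 5.39 to 5.55 in the other 5 mice of its group, and its core minus regulatory difference was 0.0912, against -0.109 to -0.0554. Psma5 was at 79.4 FPKM there (others 56.6 to 60.8), Psmb2 at 94.3 FPKM (others 70.2 to 75.9), Psmb3 at 137 FPKM (others 89.4 to 103) and Psmd8 at 87.3 FPKM (others 66.8 to 70.4).

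The remaining cases were Psma4 in AL 5 months replicate 0, at 82.7 FPKM (others 95.4 to 98.7), and Psme3 in CR 15 months replicate 4, at 48.9 FPKM (others 45.2 to 46.6).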

How the results depend on the processing

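Other pseudocounts, filters on low values and eBayes without the trend kept the 9 members called with age in AL mice. The count was 4 at a common summed FPKM (median log2 fold change of the members -0.042), 14 in a separate fit of the 2 groups, 0 with the region score, 1 with the choroid plexus score and 0 with both, the last chosen after seeing the data. Shares of all genes called in these settings were 23.6%, 25.4%, 0%, 11.2% and 0%, in that order. Leaving out single libraries gave 3 to 14 members called. For CR mice at 15 against 5 months the count of members was 1 after quantile normalization or at a common summed FPKM. All genes called were then 3.48% and 3.19%. With single libraries left out the count was 0 to 3. The causes were not tested. The replicate number as a replicate block gave 16 members with age in AL mice, against 22.1% of all genes. It changed no count of members in the other contrasts, but mice with the same number share only a number. Of 31 pairs, 2 had deviations that correlated above 0.1 (range -0.14 to 0.17), and 4 of 22 libraries correlated best with their own number.

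Members near 0 changed sign. With age in AL mice, Psmd11 was at 0.055 at a common summed FPKM. Psmd3 was at 0.035 (quantile), 0.081 (common sum), 0.065 (region score) and 0.053 (both scores). Psmd9 was at 0.11 (common sum), 0.00842 (replicate block), 0.097 (region score), 0.020 (GC and length) and 0.069 (both scores), and from -0.026 to 0.022 with single libraries left out. For CR against AL at 15 months, quantile normalization gave -0.024 for Psmd1, -0.035 for Psme2 and -0.035 for Psmd3, and a common sum gave -0.073, -0.072 and -0.070. The region score gave -0.024 for Psme2 and -0.030 for Psmd3, and both scores -0.018 and -0.034. Leaving out single libraries gave -0.040 to 0.040 for Psmd1, -0.083 to 0.072 for Psme2 and -0.022 to 0.051 for Psmd3. For CR mice with age, Psme1 was at 0.015 with the choroid plexus score, and leaving out single libraries gave -0.028 to 0.084 for Psmc1 and -0.016 to 0.087 for Psmc5. Precision comes from 5 or 6 mice a group, and the depth of each library is not given in the sources used here.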

Other observations

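The immunoproteasome subunits, which replace the catalytic ones after interferon, were present at lower levels and did not pass the limma test in any of the 5 contrasts. Psmb8, the counterpart of Psmb5, averaged 2.97 ± 0.351 FPKM (SD, n = 5) in the younger AL mice and 3.22 ± 0.565 FPKM (SD, n = 6) in the older ones. Psmb9, the counterpart of Psmb6, averaged 3.096 and 2.90 FPKM. Psmb10, the counterpart of Psmb7, was at 25.8 ± 2.95 and 29.7 ± 1.76 FPKM (log2 fold change 0.21, limma adjusted p = 0.162).

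Within a library, the ratio of Psmb5 to Psmb8 lay between 44.9 and 58.1 in AL mice at 5 months and between 20.7 and 36.9 at 15 months, without overlap. In CR mice it lay between 49.7 and 71.6 and between 26.0 and 39.9, also without overlap. With age in CR mice the parts of this ratio had log2 fold changes of opposite sign, and neither passed the limma test. Psmb8 lay between 1.81 and 2.99 FPKM at 5 months and between 3.07 and 4.25 FPKM at 15 months, without overlap (log2 fold change 0.44, limma adjusted p = 0.0680, exact permutation p = 0.00216, unadjusted), beside a log2 fold change of -0.34 for Psmb5. Psmb7 over Psmb10 lay between 5.74 and 6.47 and between 3.89 and 5.07 in AL mice, and in CR mice its ranges of 5.47 to 6.24 and 3.91 to 6.16 overlapped. Psmb6 over Psmb9 overlapped at both diets, with AL means of 27.7 and 25.2. These ratios were chosen with the levels of their parts known and were not tested. The 5 libraries of each diet at 5 months spanned a wide range of core levels, 6.54 to 6.77 in AL and 6.50 to 6.82 in CR mice on the log2 scale over the 14 abundant genes.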
